A study of Mus musculus with 10 samples.

Results

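Genes of iron handling, 8 in all, were followed through ribosome profiling of mouse cells in which Wdr4 was targeted. They are Fth1, Ftl1, Tfrc, Aco1, Ireb2, Slc40a1, Slc11a2 and Hmox1, taken by name as 8 of the 21934 gene symbols in each of the 2 deposited tables. Wdr4 is the partner of the tRNA methyltransferase Mettl1, and the series' title asks how it acts on translation efficiency. Monoclonal lines of immortalized bone marrow-derived macrophages (iBMDM) were labelled WT, sgWdr4-1 (guide 1) or sgWdr4-2 (guide 2), after lentiviral delivery of 1 of 2 guide RNAs against Wdr4 and puromycin selection; the labels do not say what, if anything, the WT line received. Tumour-associated macrophages (TAM) were sorted by the surface protein F4/80 from orthotopic liver tumours of Hepa1-6 hepatoma cells. The mice were labelled Wdr4 ff (ff) or Wdr4 cKO (cKO), the latter with a myeloid deletion, whose Cre driver, and the number and age of mice, the sources used here do not give. Each of the 5 conditions had 1 input library of polyadenylated RNA and 1 library of ribosome footprints, the mRNA fragments shielded by ribosomes during nuclease digestion.

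Cells balance iron uptake and storage largely after transcription. The iron regulatory proteins IRP1, encoded by Aco1, and IRP2, encoded by Ireb2, bind a stem-loop called the iron-responsive element when iron is scarce. Bound ahead of the coding sequence, as in ferritin mRNA, they block initiation of translation, and bound behind it, as in Tfrc mRNA, they protect the mRNA from decay. In macrophages this circuit is known for the handling of iron recovered from red cells, which Hmox1 frees from heme and ferroportin, encoded by Slc40a1, exports.

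Several measurements bear on all values below. Values are TPM, a share of the library's transcripts corrected for their length, so levels of different genes can be set side by side within a library; read depth is unknown. Wdr4 did not follow every label: Wdr4 input stood at 44.6 TPM (WT), 31.3 (guide 1), 44.5 (guide 2), 39.8 (ff) and 20.9 (cKO). Its footprints, at 13.3, 24.3, 26.9, 8.51 and 17.7 TPM in the same order, were higher in each targeted library. Conditions are therefore named by their labels, and each direction is one between libraries labelled so. In the guide 1 footprint library, mitochondrially encoded genes took 0.781% of TPM, against 9.94% to 14.6% in the other 4 footprint libraries. Of 20 macrophage markers, 17 were under 1 TPM in all 5 inputs, and their summed input was 17.8 to 24.2 TPM; Adgre1, the gene of F4/80, was listed at 0 in all 10 libraries. Of 10 fibroblast and stellate cell markers, 4 were under 1 TPM in every input and 6 at 5 TPM or more in every input. Summed over all 10, input TPM was 3578 (WT), 4226 (guide 1), 3649 (guide 2), 3591 (ff) and 5246 (cKO). Most of each sum was Acta2, with inputs of 2397 to 3785 TPM. Of 11 hepatocyte and hepatoma markers in the tables, 8 were under 1 TPM in every input, with sums of 99.4 to 167 TPM. Of 8 erythroid markers, 7 were under 1 TPM in every input, and Hbb-bs reached 1.37 TPM. The globin genes nevertheless had footprints in every library, at 50.3 to 172 TPM for Hba-a1, 32.5 to 93.7 TPM for Hba-a2, 49.1 to 171 TPM for Hbb-bs and 75.6 to 229 TPM for Hbb-bt, while the other 4 erythroid markers were under 1 TPM in footprints too. The part of these differences in the results was not tested, and in bulk samples fewer cells of a type and less RNA per cell cannot be told apart.

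The ferritin subunits were among the most abundant mRNAs, and the ribosome footprints on them were fewer in every library labelled as targeted than in its control. Fth1 encodes the heavy subunit, which oxidises iron as it enters the ferritin shell. Fth1 input stood at 2269 TPM in WT, 2821 TPM under guide 1, 2254 TPM under guide 2, 2303 TPM in ff and 3130 TPM in cKO, ranks 30 to 61 of all genes. Fth1 footprints stood at 1346 TPM in WT, against 717 TPM for guide 1 and 519 TPM for guide 2. In the TAM table they were 1393 TPM in ff and 487 TPM in cKO. The controls of the 2 tables were thus close to each other, and all 3 targeted libraries lay below both. Fth1 input was higher or close to the control, at 124% of WT under guide 1, 99.4% under guide 2 and 136% of ff in cKO.

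Translation efficiency, here log2(footprint TPM + 1) minus log2(input TPM + 1), puts these together. For Fth1 it was -0.75 in WT and -0.72 in ff, near the median gene (-0.58 and -0.59), and -1.98 under guide 1, -2.12 under guide 2 and -2.68 in cKO. The change was -1.22 under guide 1, -1.36 under guide 2 and -1.96 in cKO, so that Fth1 was at least 2-fold lower in each of the 3 comparisons. Among all tested genes (mean input and mean footprint TPM each at least 5), these changes lay at percentiles 8.64, 1.79 and 2.14. The median gene changed by 0.01, -0.05 and -0.25 in the same comparisons. Of the 7 iron genes tested, Fth1 alone was at least 2-fold lower under both guides, against 2.04% of 7536 genes, and alone so in all 3 comparisons, against 1.10% of the 6927 genes tested in both tables. The guides share the WT library, so their agreement is not that of separate experiments.

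**Figure D1:**
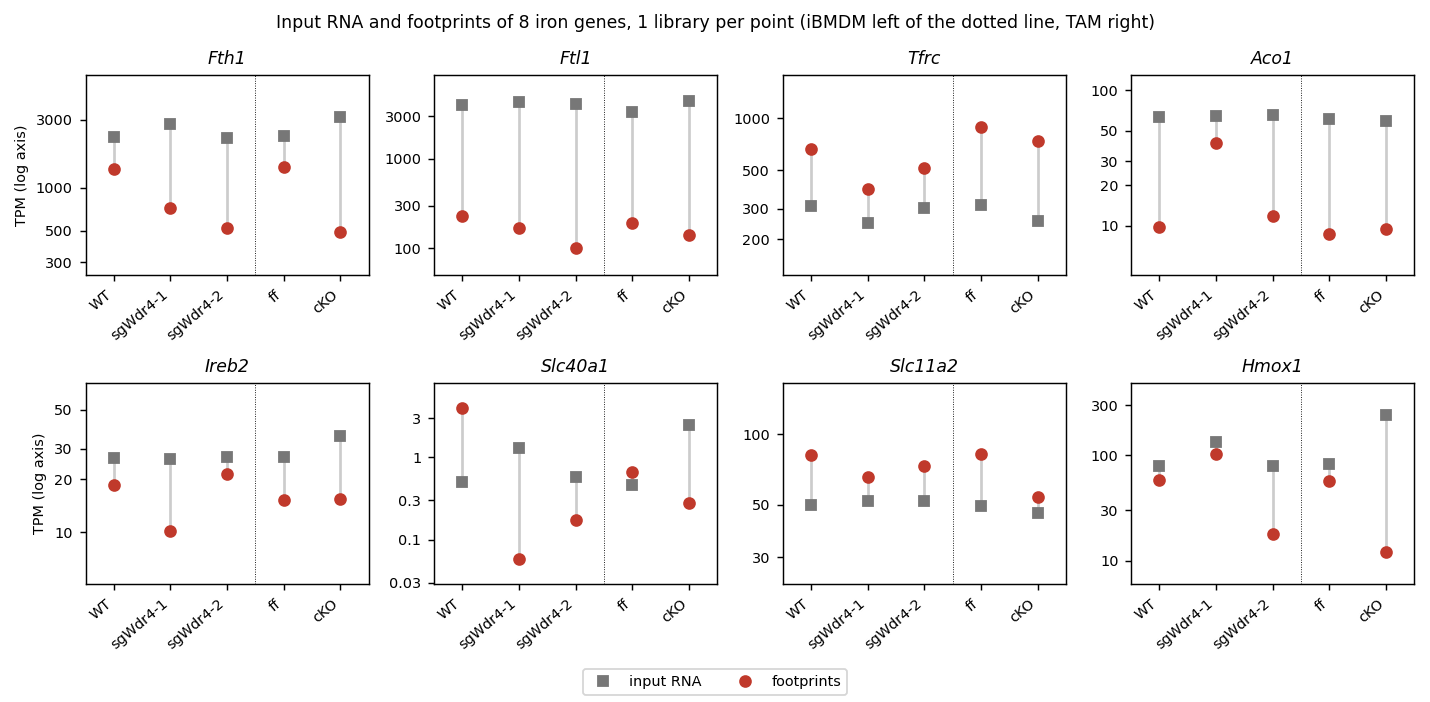
Input RNA (grey squares) and footprints (red circles) of the 8 iron genes in TPM on log axes, 1 library per point, with the iBMDM lines left and the TAM conditions right of the dotted line. Fth1 footprints were 1346 and 1393 TPM in WT and ff and between 487 and 717 TPM in the 3 targeted libraries, while Ftl1 footprints lay far below its input throughout.

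Ftl1 encodes the light subunit, which helps iron form its mineral core. Its input was higher than that of Fth1 in every condition, by 1.40 to 1.83 times, at 4010 TPM in WT, 4328 TPM under guide 1, 4121 TPM under guide 2, 3327 TPM in ff and 4388 TPM in cKO. In the footprints the order was inverted: Ftl1 stood at 232, 169, 99.99, 190 and 140 TPM in that order of conditions, and Fth1 exceeded it by 3.49 to 7.31 times. Ftl1 translation efficiency was -4.11 in WT, -4.67 under guide 1, -5.35 under guide 2, -4.12 in ff and -4.97 in cKO. That was between percentiles 0.133 and 0.310 of tested genes in the 5 conditions and the lowest of the 7 iron genes in each.

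Ftl1 footprints were lower than in the control under both guides and in cKO, by less than for Fth1. Its translation efficiency changed by -0.56 for guide 1, -1.25 for guide 2 and -0.85 in cKO, at percentiles 27.7, 2.49 and 21.0, so only guide 2 passed 2-fold. Ftl1 has a near-identical copy, Ftl1-ps1, and how reads mapping to both were shared out is not stated in the labels. The copy was listed at 0 in 4 footprint libraries and at 30.3 TPM under guide 2, with inputs of 5.64 to 9.01 TPM. With the copy's TPM added, an alternative chosen after seeing the data, the guide 2 change of Ftl1 was -0.87 and no longer past 2-fold, and the guide 1 and cKO changes stayed at -0.56 and -0.85. The level of Ftl1 footprints is uncertain for the same reason. Together, Fth1 and Ftl1 took 0.563% to 0.752% of input TPM; of footprint TPM they took 0.158% in WT, 0.0886% under guide 1, 0.0619% under guide 2, 0.158% in ff and 0.0627% in cKO.

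Tfrc, the transferrin receptor that brings iron into the cell, had the highest translation efficiency of the 7 iron genes that passed the filter in all 5 conditions. Its input stood at 313 TPM in WT, 249 TPM under guide 1, 306 TPM under guide 2, 315 TPM in ff and 255 TPM in cKO. Its footprints were 669, 391, 517, 894 and 742 TPM in that order. Both measures were lower in each targeted library than in its control. For guide 1, guide 2 and cKO the changes lay at percentiles 4.66, 33.1 and 8.73 in input and 16.3, 26.1 and 44.5 in footprints. Of all tested genes, 46.4%, 52.5% and 63.9% had footprints below the control in the same comparisons. The 2 tables' footprints of Tfrc did not overlap, the TAM values being higher, and the tables were normalised separately. Translation efficiency was 1.09 in WT, 0.65 under guide 1, 0.76 under guide 2, 1.50 in ff and 1.54 in cKO, at percentiles 87.0 to 95.6. It changed by -0.44 for guide 1, -0.34 for guide 2 and 0.03 in cKO, each within 2-fold and between percentiles 29.0 and 66.5.

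The distance between Tfrc and Fth1 in translation efficiency was wider in each targeted library than in its control. Tfrc stood above Fth1 by 1.85 on the log2 scale in WT, 2.62 under guide 1 and 2.87 under guide 2. In the TAM table the distance was 2.23 in ff and 4.22 in cKO. Tfrc stood above Ftl1 by 5.20 in WT and 5.32 under guide 1, nearly the same. Under guide 2, where Ftl1-ps1 also held footprints, it did so by 6.11, and in the TAM table by 5.62 in ff and 6.50 in cKO. Tfrc moved by at most 0.44 in these comparisons and Fth1 by at least 1.22. Because it compares 2 genes within a library, this distance does not depend on how the library was scaled.

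**Figure D2:**
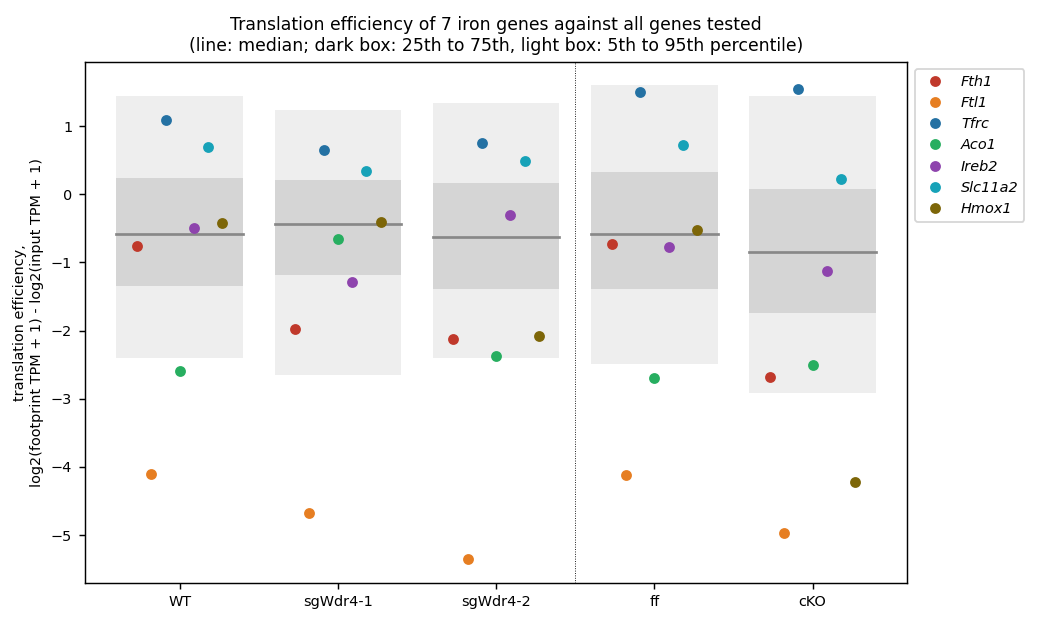
Translation efficiency on the log2 scale of the 7 iron genes that passed the filter, by condition, over the 25th to 75th (dark) and 5th to 95th (light) percentile of all tested genes, with their median as a line. Tfrc and Slc11a2 stand highest in every condition and Ftl1 lowest, and Fth1 goes from near the median in WT and ff to between -1.98 and -2.68 in the targeted libraries.

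Input RNA of the 2 iron regulatory protein genes stayed within 2-fold, and it moved most for Ireb2 in cKO, at 131% of ff. Aco1, whose product is IRP1 when it lacks its iron-sulfur cluster and a cytosolic aconitase when it holds one, had inputs of 63.6 TPM in WT, 64.9 TPM under guide 1, 65.0 TPM under guide 2, 61.7 TPM in ff and 58.9 TPM in cKO. Its footprints were 9.74, 40.9, 11.7, 8.69 and 9.52 TPM in that order. The guide 1 library was 4.20 times WT and stood alone, while the other 4 lay within 8.69 to 11.7 TPM. Its translation efficiency changed by 1.93 under guide 1, percentile 98.5, by 0.22 under guide 2 and by 0.19 in cKO. The high value comes from the footprint library that also stood apart in mitochondrially encoded genes, where 14.8% of tested genes were at least 2-fold higher; the part of that library in the result was not tested, and without guide 1 the change is 0.22.

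Ireb2, whose product IRP2 is degraded when iron is plentiful, had the lowest input of the 7 tested genes. Input stood at 26.6 TPM in WT, 26.2 TPM under guide 1, 26.7 TPM under guide 2, 26.9 TPM in ff and 35.2 TPM in cKO. Its footprints were 18.5 TPM in WT, 10.2 TPM under guide 1, 21.6 TPM under guide 2, 15.3 TPM in ff and 15.6 TPM in cKO. No comparison passed 2-fold, and the guides went opposite ways in translation efficiency (-0.78 and 0.20). The cKO change was -0.35.

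Of the membrane transporters, Slc11a2 was well measured and Slc40a1 was not. Slc11a2 encodes DMT1, which carries ferrous iron across the cell surface and out of endosomes, and some of its transcripts hold an iron-responsive element. Its input lay between 46.1 and 51.9 TPM in all 5 conditions. Its footprints were 81.8 TPM in WT, 65.9 TPM under guide 1, 73.4 TPM under guide 2, 82.2 TPM in ff and 53.9 TPM in cKO, lower in each targeted library. These footprint changes lay at percentiles 33.6, 40.6 and 22.2 of all tested genes, of which 46.4%, 52.5% and 63.9% were below the control. Translation efficiency was next after Tfrc among the 7 genes that passed the filter in every condition and changed by -0.36, -0.20 and -0.50, all within 2-fold. Slc40a1, ferroportin, did not pass the filter. Its input stood at 0.499 TPM in WT, 1.29 TPM under guide 1, 0.583 TPM under guide 2, 0.463 TPM in ff and 2.45 TPM in cKO. Slc40a1 footprints were 3.97, 0.058, 0.172, 0.662 and 0.282 TPM in that order. These levels are too low for a comparison at unknown depth.

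Hmox1, the heme oxygenase that releases iron from heme, differed most among the iron genes in cKO. Its input stood at 78.7 TPM in WT, 135 TPM under guide 1, 78.6 TPM under guide 2, 83.2 TPM in ff and 243 TPM in cKO. The cKO change in input, 1.53, was the 1 value past 2-fold higher among 7 iron genes, against 1.42% of 7101 genes, and 0 were lower, against 0.169%. Under guide 1 no iron gene passed 2-fold in input, against 0.318% of all genes higher and 0.0796% lower, and none under guide 2, against 0.0265% and 0.0398%. Hmox1 footprints were 58.5 TPM in WT, 102 TPM under guide 1, 17.8 TPM under guide 2, 57.3 TPM in ff and 12.02 TPM in cKO. Under guide 1 input and footprints were higher than WT by 1.72 and 1.75 times, so translation efficiency changed by 0.02. Under guide 2 input was 99.8% of WT and footprints were 30.4% of it, a change in translation efficiency of -1.66. In cKO more RNA went with fewer footprints, which were 21.0% of ff, and translation efficiency changed by -3.70, at percentile 0.141. The guides thus went different ways for Hmox1, and this difference was not tested.

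**Figure D3:**
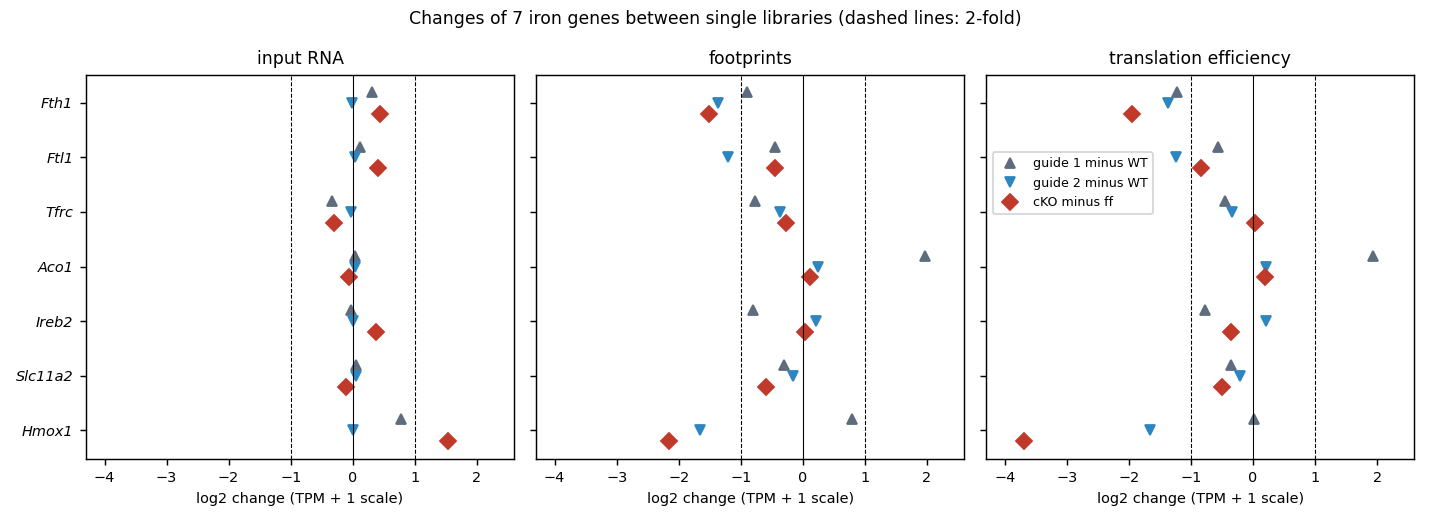
Log2 changes of the 7 tested iron genes in input RNA, footprints and translation efficiency for guide 1 and guide 2 minus WT and cKO minus ff, each from single libraries, with dashed lines at 2-fold. Fth1 lies left of the 2-fold line for translation efficiency in all 3 comparisons, Hmox1 in guide 2 and cKO, and Ftl1 in guide 2. Ftl1 is drawn without its copy Ftl1-ps1.

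Counted over the 7 tested genes, which leave out Slc40a1, most values of translation efficiency were below the control. In each comparison 5 changes were below 0 and 2 above, with medians of -0.44 under guide 1, -0.34 under guide 2 and -0.50 in cKO; of all tested genes, 49.5%, 53.5% and 64.9% were below 0. At least 2-fold lower were 1 gene under guide 1 (Fth1, against 13.7% of all genes), 3 under guide 2 (Fth1, Ftl1 and Hmox1, against 4.87%) and 2 in cKO (Fth1 and Hmox1, against 16.0%). At least 2-fold higher was Aco1 under guide 1, against 14.8%; none was under guide 2 (3.53%) or in cKO (4.03%). In footprints none was 2-fold lower under guide 1 (10.3% of all genes), Fth1, Ftl1 and Hmox1 were under guide 2 (4.63%), and Fth1 and Hmox1 in cKO (8.15%). With the Ftl1-ps1 copy added, Ftl1 under guide 2 passed 2-fold in neither measure. Its footprints were then 130 TPM, against 232 TPM in WT. Higher in footprints was Aco1 under guide 1 (16.1%) and none under guide 2 (3.03%) or in cKO (2.73%). None passed in footprints under both guides, where 1.43% of all genes were lower and 0.743% higher. Fth1 footprints under guide 1 (-0.91) went past 2-fold, to -1.04 or -1.08, when libraries were rescaled.

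In order of translation efficiency among the 7 tested genes, Tfrc (0.65 to 1.54 over the 5 conditions) and Slc11a2 (0.22 to 0.72) came first in each library, and their ranges overlap. Hmox1, Ireb2, Fth1 and Aco1 overlapped each other. Ftl1 (-5.35 to -4.11) overlapped only with the cKO value of Hmox1 (-4.23).

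Limma, set to contrast guide 1 and guide 2 together with WT over all genes, called none of the 7 iron genes in input, footprints or translation efficiency. None had an unadjusted p under 0.05 either, against 0.73% of all genes in input, 0.863% in footprints and 2.19% in translation efficiency. For Fth1 the estimate for translation efficiency was -1.29 (SE 1.05, limma adjusted p = 0.9999 after Benjamini-Hochberg), and for footprints it was -1.14 (SE 0.72, limma adjusted p = 0.99997). Over all genes limma called 0 in input, 1 in footprints (0.0133%, higher) and 5 in translation efficiency (0.0398% higher and 0.0265% lower). The fit has 1 residual degree of freedom, and a p that misses the threshold does not show that a gene did not differ. In simulated data it called few or none of the genes given a 4-fold change in footprints or translation efficiency. It therefore cannot decide whether an iron gene differed in either quantity. An interaction term over the 6 iBMDM libraries also called none (limma adjusted p = 0.9999 for Fth1). For cKO against ff no test was possible with 1 library each.

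Genes whose changes most resembled those of Fth1 over 6 values (input and translation efficiency in the 3 comparisons), among 3450 genes whose means reached 20 TPM, were Ccnl1, Chst11 and Ppp4r1, at root mean square distances of 0.115, 0.205 and 0.220. Those nearest to Ftl1 were Fuca2 (0.133), Cr1l (0.155) and Gprc5a (0.168), and those nearest to Tfrc were Tnpo3 (0.118), Tmed4 (0.138) and Atp6v0e (0.162).

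The remaining iron pathway was taken from 8 lists with 97 genes, of which 69 (iBMDM) and 68 (TAM) passed the filter. Under both guides translation efficiency was at least 2-fold higher for 1 gene, Uros, and lower for 1, Lrp1, against 0.902% and 2.04% of all genes. Uros passed the filter through the guide libraries, and its change rests on a low WT footprint value (2.696 TPM). Limma called 0. In cKO 2 were at least 2-fold higher and 11 lower, against 4.03% and 16.0%. Medians of these genes were 0.28 under guide 1, 0.13 under guide 2 and -0.10 in cKO, above those of all genes in each case.

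Other mRNAs described to carry an iron-responsive element were mostly low. Cdc42bpa, a kinase of the cytoskeleton, passed the filter in the TAM table only, with footprints of 6.81 TPM in ff and 3.44 TPM in cKO and a change of -1.20. It passed there through ff, the library in which its footprints were higher. Cdc14a, a phosphatase, was under 4 TPM in every library, Epas1, a hypoxia-inducible factor, under 1 TPM, and Alas2, the erythroid enzyme of heme synthesis, was listed at 0 in every input.

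Genes of iron sensing and ferritin turnover had medians of 0.41 for each guide and 0.18 in cKO over 8 tested genes. None was lower by 2-fold or more in any comparison, against 13.7%, 4.87% and 16.0% of all genes. At least 2-fold higher were Pcbp1, an iron chaperone, under guide 1 (1.16, against 14.8% of all genes) and Vhl, which marks hypoxia-inducible factors for degradation, under guide 2 (2.02, against 3.53%), and none in cKO (4.03%). Vhl was also the 1 of the 69 genes with at least 2-fold more footprints under both guides (1.07 and 2.01), against 0.743% of all genes. Among them Ncoa4, which delivers ferritin to lysosomes, was at 0.74, 0.33 and -0.50, and Fbxl5, which marks IRP2 for degradation, at -0.64, 0.39 and -0.44; all 4 were named after their values were seen. Iron uptake, reduction and export genes mostly had little RNA. Of 17 listed, 16 were in the tables, 12 were under 1 TPM in every iBMDM input and 4 were tested. Steap3, the endosomal ferrireductase, was at 1.22, -0.25 and -1.24 under guide 1, guide 2 and in cKO.

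Medians for iron-sulfur cluster assembly differed in sign between comparisons. The mitochondrial list (16 tested) had medians of -0.43, 0.50 and 0.13 and the cytosolic list (10 and 9 tested) of 0.30, -0.11 and 0.06 in the 3 comparisons. In cKO Iscu, the scaffold protein on which clusters are built, was at 1.01 and Ndor1, an electron carrier of the cytosolic pathway, at 1.03; Ndor1 was also at 1.22 and 0.96 under the guides. Ndor1 footprints were low in the controls, 2.912 TPM in WT and 3.125 TPM in ff, against 6.148 to 8.066 TPM in the targeted libraries. Ndor1 thus passed the filter through the targeted libraries, and its changes rest on the low controls. Ciao1, of cytosolic cluster targeting, was at 1.96 under guide 1, -0.10 under guide 2 and -1.29 in cKO.

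Heme synthesis genes had medians of 0.87 and 0.23 under the guides (7 tested) and -0.65 in cKO (6 tested). Uros, uroporphyrinogen synthase, was at 1.42 and 1.11 under the guides and -2.17 in cKO, and Cpox, a later enzyme of the pathway, at 0.36, 0.23 and -1.02. Uros footprints were 11.7 TPM in ff and 2.555 TPM in cKO, so in the TAM table it passed the filter through ff. Heme transport and breakdown genes (10 tested) had medians of 0.57, -0.05 and -0.41. Lrp1, an endocytic receptor that also takes up heme bound to hemopexin, was at -1.33, -1.14 and -1.05. In cKO 3 of the 10 were at least 2-fold lower, against 16.0% of all genes, and 0 were higher, against 4.03%. Besides Lrp1 these were Blvrb, a biliverdin reductase, at -2.29, and Slc48a1, which exports heme from lysosomes, at -1.42, both with higher cKO input (1.02 and 1.08). Hmox2, the other heme oxygenase, was at 0.46 in cKO, Por, which passes electrons to heme oxygenase, at 0.43 and Abcg2, a heme exporter, at 0.70; these 3 were chosen after their values were seen.

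Hmox1 and the ferritin genes are known targets of the activator NRF2 and the repressor BACH1. The list used for this pathway left out Hmox1, Fth1 and Ftl1, whose cKO input changes were 1.53, 0.44 and 0.40. Of the 13 tested genes on that list 0 passed 2-fold in input in any comparison. Of all genes, 0.318% (guide 1), 0.0265% (guide 2) and 1.42% (cKO) were at least 2-fold higher. Srxn1 came nearest in cKO, at 0.94. Slc7a11, the cystine transporter, did not pass the filter; its input was 0.427 TPM in WT, 2.88 TPM for guide 1, 0.468 TPM for guide 2, 1.09 TPM in ff and 7.97 TPM in cKO, and it was chosen after its values were seen. The 13 tested genes had input medians of 0.23 under guide 1, -0.01 under guide 2 and 0.16 in cKO, against 0.08, 0.01 and 0.06 for all genes. In translation efficiency 3 of 13 were at least 2-fold lower in cKO, against 16.0% of all genes: Srxn1 (-1.69), Bach1 (-1.33) and Txnrd1 (-1.25), of which Srxn1 and Txnrd1 are enzymes of redox defence. Bach1 footprints were 7.867 TPM in ff and 3.785 TPM in cKO, so in the TAM table it passed the filter through ff.

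**Figure D4:**
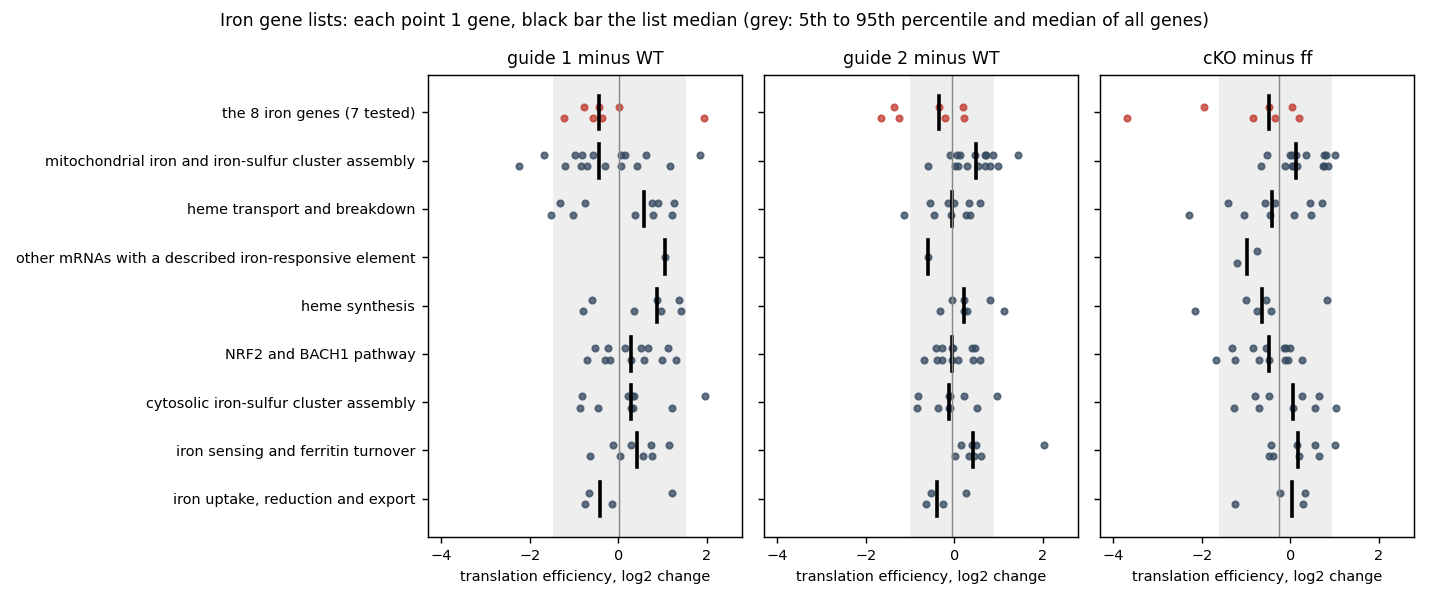
Changes in translation efficiency (log2) of the tested genes of the 8 iron pathway lists and of the 7 tested iron genes (red), by comparison; each point is 1 gene, black bars are list medians, and the grey band and line are the 5th to 95th percentile and median of all tested genes. The red points of Fth1 and Hmox1 lie below the band in guide 2 and cKO, and that of Ftl1 in guide 2. Ftl1 is drawn without its copy Ftl1-ps1.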

How the data were processed

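The authors deposited 2 tables of TPM, one for the 6 iBMDM and one for the 4 TAM libraries; fastp 0.18.0 and Bowtie2 are named in the submitters' processing notes, while the build, annotation, quantifier and handling of multi-mapping reads were not given in the sources used here. Depth is lost in this unit, so no counting interval is given. Of the rows, 42 in each table share a symbol with another; the row with the highest mean was kept. Changes are differences of log2(TPM + 1) within a table, a scale that shrinks those of weakly expressed genes, for 7536 iBMDM and 7101 TAM genes with mean input and footprint TPM of at least 5. Percentiles rank a gene among these. Limma 3.58.1 in R 4.3.3 (trend, two-sided, adjusted p under 0.05) set both guide lines against WT, so its spread is that between the guides; separate cultures are not recorded in the labels, and this spread may be technical. The fit was tested on simulated data with the spread seen between the guides. It called most genes given a 2-fold or 4-fold change in input, none in footprints and few in translation efficiency. Other steps used Python 3.11.15. Named were all 8 iron genes, pathway genes at least 2-fold apart in translation efficiency (at most 4 per list and direction), listed iron-responsive-element mRNAs, of which 1 is not reported here, and nearest patterns. Members and lists were chosen with earlier results of these data known. Sequences of the iron-responsive elements were not used here.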

Additional observations from a re-analysis of the deposited data

Results flagged for a closer look

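For 3 values both guides went one way and cKO the other; none of these differences was tested. Tfrc translation efficiency was -0.444 (guide 1) and -0.337 (guide 2) relative to WT and 0.0331 in cKO relative to ff. Aco1 input RNA changed by 0.0283, 0.0312 and -0.0675, and Slc11a2 input RNA by 0.0512, 0.0482 and -0.103, in the same order. All are far within 2-fold, and the guide 1 values of Aco1 and Slc11a2 changed sign with the scaling, while the guide 2 values stayed above 0 in the 7 settings tried.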

How the results depend on the processing

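No paired analysis was possible because each condition had 1 library of each kind and the labels carry no replicate numbers. Fth1 translation efficiency stayed at least 2-fold lower in every setting tried, from -1.34 to -1.22 under guide 1, -1.37 to -1.27 under guide 2 and -1.96 to -1.67 in cKO, and Hmox1 from -1.71 to -1.48 under guide 2 and -3.79 to -3.36 in cKO. The background counts moved more: genes at least 2-fold lower in translation efficiency were 399 to 2241 in cKO. For footprints under both guides, 0 iron genes were at least 2-fold lower; there was 1 with no filter (Slc40a1) and 1 with either rescaling (Fth1). For translation efficiency 2 were lower with no filter, Slc40a1 besides Fth1, and in cKO input 2 were higher with no filter. Leaving out guide 1 or guide 2, iron genes at least 2-fold lower were 0 to 3 for footprints and 1 to 3 for translation efficiency, and those higher 0 to 1 for each. Over all genes limma called 5 footprint genes with a pseudocount of 0.1, 2 with either rescaling and 0 with a pseudocount of 5, no filter or a filter at 20 TPM. It called 3 genes for translation efficiency with rescaling to the same median, 0 with no filter, a filter at 20 TPM or the interaction term, and 4 for input with rescaling to the same median; none was an iron gene. Averages over both guides changed sign with rescaling to the same median for Aco1 (-0.035) and Slc11a2 (-0.015) input. With 1 guide left out they also changed sign, running from -0.0092 to 0.31 for Fth1 input, -0.022 to 0.0073 for Ireb2 input, -0.0022 to 0.78 for Hmox1 input, -0.80 to 0.21 for Ireb2 footprints, -1.66 to 0.80 for Hmox1 footprints, -0.78 to 0.20 for Ireb2 translation efficiency and -1.66 to 0.021 for Hmox1 translation efficiency. The cause was not tested. Unknown depth limits all values.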
